A study of Mus musculus with 6 samples.

Results

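The genes of the lysosome and of its proton pump, 48 in all, were followed in leukemia-initiating cells (LICs). They were taken by gene symbol and not by their values, and comprised 9 cathepsins and legumain, 13 other hydrolases, 3 proteins that serve hydrolases or lipids in the lumen, 7 proteins of the lysosomal membrane, the transcription factor gene Tfeb and 15 genes of the vacuolar proton pump (V-ATPase). All 48 were among the 27179 genes of the deposited table, and all 48 had a mean of at least 1 RPKM over the 6 libraries, the level above which 12037 genes were tested. RPKM is the number of reads per kilobase of gene, scaled to the size of the library, so that levels can be compared between genes. Between libraries the comparison is less exact, since the RPKM summed over all genes ran from 493326 to 532811 over the 6 libraries. Scaling by median ratios and by quantiles was therefore tried as well.

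The cells were YFP+Mac-1+c-Kit+ LICs sorted from the bone marrow of C57BL/6 mice with an acute myeloid leukemia driven by the fusion oncogene MLL-AF9, with an age of 8 weeks on every label. Total RNA was sequenced from 3 libraries labelled Asic3-/- (Asic3-null) and 3 labelled Asic3+/+ (WT), where ASIC3 is acid-sensing ion channel 3 and the comparison asks what differs in LICs without it. Both groups carried MLL-AF9 with YFP, which a retrovirus had brought into lineage-negative fetal liver cells before transplantation into lethally irradiated recipients, and the deletion was in those donor cells. Whether a library came from 1 mouse or a pool, and from first or later recipients, is not given in the sources used here, so the p values measure the spread among these 6 libraries.

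The lysosome is the acidic compartment in which a cell digests protein, lipid, glycan and nucleic acid. The V-ATPase acidifies it: its peripheral V1 sector hydrolyzes ATP and its membrane V0 sector carries the protons. The hydrolases work at that low pH, many of them are made as inactive precursors that are cleaved on arrival, and the transcription factor TFEB raises many of their genes through an E-box called the CLEAR element. Macrophages and other mature myeloid cells are rich in lysosomal proteases.

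The letters TCACGTGA, which lie within the CLEAR element, were sought in the RefSeq promoter windows of GRCm38.p6, from 250 bases before to 50 bases after each annotated start, and CACGTG, the E-box inside them, was sought as well. Both read the same on either strand. A window was at hand for 39 of the 48 genes, and 7 of these 39 (17.9%) held TCACGTGA, against 212 of the 8889 tested genes with a window (2.38%). The shorter CACGTG stood in 13 of the 39 (33.3%) and in 1093 of the 8889 (12.3%). The 7 genes with the longer motif are shown with 30 bases each, in the direction of the gene and with the motif in capitals, because they carry the letters that TFEB is known to bind. Ctsa and Gla each hold a second copy that is not shown.

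Atp6v0d1, chr8:105566050-105566079, minus strand: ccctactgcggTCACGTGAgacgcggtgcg
Atp6v0e, chr17:26676387-26676416, plus strand: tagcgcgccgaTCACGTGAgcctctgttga
Atp6v1a, chr16:44139373-44139402, minus strand: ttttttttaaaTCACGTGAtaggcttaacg
Ctsa, chr2:164833749-164833778, plus strand: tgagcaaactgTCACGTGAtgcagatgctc
Ctsd, chr7:142387908-142387937, minus strand: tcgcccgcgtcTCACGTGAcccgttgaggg
Gla, chrX:134601182-134601211, minus strand: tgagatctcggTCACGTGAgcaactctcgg
Mcoln1, chr8:3500462-3500491, plus strand: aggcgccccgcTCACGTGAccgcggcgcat

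In the GENCODE M21 annotation of the same build the motif of Atp6v0d1 overlaps no base of the gene, while by the RefSeq window it runs across the start, with its first 4 bases before it. Those of Atp6v0e, Ctsa, Ctsd and Mcoln1 lie in an untranslated exon of the gene and that of Atp6v1a lies in an intron. That of Gla lies outside Gla, 195 bases before its start and within the neighbouring gene Hnrnph2. A match of letters is a description of the sequence and not a measured binding site.

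The libraries held between 1947168 and 2381861 reads, as recovered from the RPKM values. The 48 genes had a median of 282 reads per library and lay between 5 and 4280. The targeted gene went against the labels: Asic3 was measured at 9.12, 4.11 and 6.58 RPKM in the 3 libraries with the label Asic3-null, called null-labelled from here on, and at 1.22, 1.85 and 0.435 RPKM in the 3 WT-labelled libraries (adjusted p = 0.0260 from limma). No null-labelled library was as low as a WT-labelled one, and the call was lost without null-labelled replicate 1 or 3 or WT-labelled replicate 1 or 3, with adjusted p of 0.0655 to 0.1 from limma. It was also lost without a filter on low values (adjusted p = 0.0623 from limma) and with the replicate number as a block (adjusted p = 0.0598 from limma). Xist, a transcript of the inactive X chromosome, ran from 46.5 to 71.9 RPKM in null-labelled and from 0.0236 to 0.0573 RPKM in WT-labelled libraries, while the summed Y-linked genes were at 0 RPKM in the former and at 81.4 to 118.2 RPKM in the latter. The genotype label and the sex of the cells therefore cannot be told apart, and every direction given is that of null-labelled against WT-labelled libraries. Which part of Asic3 gave its reads cannot be seen in a value for the whole gene, and whether the labels were exchanged was not tested. An exchange would reverse every direction.

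Markers of neutrophils, monocytes and macrophages differed too. Of 14 neutrophil markers, 12 were tested and all 12 were called lower in null-labelled libraries, where 2.82% of all 12037 tested genes were. The summed level of the 14 was 334 to 523 RPKM against 4423 to 5380 RPKM. Not tested were Ly6g and Cxcr2, the latter at 0.675 to 1.72 RPKM in WT-labelled libraries. None of the 14 was at 0 in every library, but Ly6g had 1 read, in null-labelled replicate 1, and 0 in every other library. Of 20 monocyte and macrophage markers, 11 were tested and 5 (45.5%, beside the same 2.82%) were called lower, with a summed level of 1155 to 1332 RPKM against 2271 to 2843 RPKM. Most of this sum came from Ly6c2, which had means of 1039 and 1316 RPKM and was not called, and from Lyz2, with 111 and 1116 RPKM. Timd4 and Spic were at 0 throughout, and Fcgr1, Mrc1, C1qa, C1qc, Marco, Cd5l and Ms4a7 had at most 2 reads in any library. Itgam, the gene of the sorted Mac-1 chain, lay between 12.3 and 16.9 RPKM against 55.1 to 89.5 RPKM (adjusted p = 0.000720 from limma), and Kit, the other sorted marker, had means of 17.6 and 11.1 RPKM (adjusted p = 0.219 from limma). The osteoclast markers, 7 genes that include lysosomal and V-ATPase genes of bone-resorbing cells, summed to 5.07 to 7.30 RPKM against 5.80 to 12.4 RPKM, and Calcr, Ocstamp and Atp6v0d2 were at 0. Summed T cell markers lay between 0 and 1.15 RPKM with Cd3e, Cd4 and Cd8a at 0, erythroid markers between 0.972 and 10.3 RPKM with Slc4a1 at 0, and B cell markers between 95.6 and 177 RPKM with Ms4a1 at 0. The part of these markers in the results below was not tested. In these bulk libraries fewer cells of a type and less RNA per cell cannot be told apart.

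Of the 48 genes 7 (14.6%) were called lower in null-labelled libraries, against 2.82% of all tested genes, and 0 were called higher, against 0.523% of all tested genes. The 7 were Psap, Grn, Ctss, Ctsl, Ctsb, Lgmn and Asah1, with 1.45-fold to 4.18-fold lower mean RPKM. None of the 15 V-ATPase genes was called, which for 15 genes is near the background of 2.82%. The summed level of the 48 genes was 4709 ± 121 RPKM in null-labelled libraries and 5819 ± 171 RPKM in WT-labelled ones (SD, n = 3 each), a ratio of 0.809, and the highest sum of the former, 4781 RPKM, lay under the lowest of the latter, 5623 RPKM.

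Each gene was tested with limma on log2(RPKM + 1), and a gene was called where the p value adjusted over all 12037 tested genes was under 0.05. The resulting log2 fold changes understate the change of genes with low RPKM. At an unadjusted p under 0.05, 17 of the 48 genes were lower and 1 was higher, where 9.45% and 6.43% of all tested genes were. All 3 null-labelled libraries lay below all 3 WT-labelled ones for 19 of the 48 (39.6%), where 11.4% of all tested genes did so, and all 3 lay above for 1, where 11.2% of all tested genes did so. The log2 fold change was below 0 for 38 of the 48 (79.2%) and for 45.5% of all tested genes. Its median was -0.23 over the 48 genes and 0.03 over all tested genes.

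**Figure D1:**
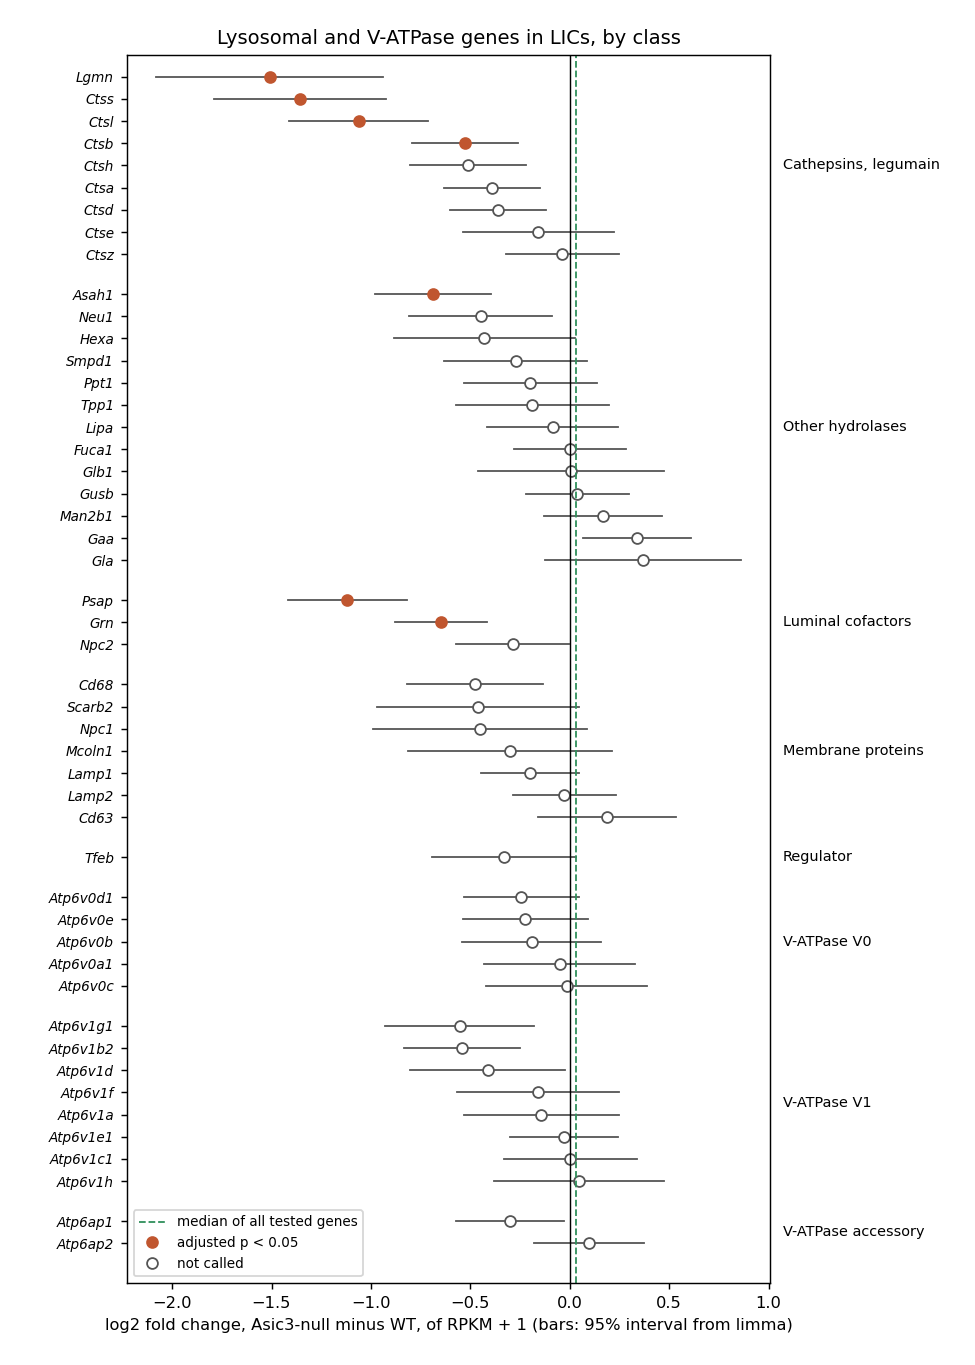
Log2 fold change of RPKM + 1, null-labelled libraries minus WT-labelled libraries, on the horizontal axis, for each of the 48 genes grouped by class; points are estimates from limma, bars their 95% intervals, filled points genes with an adjusted p under 0.05, and the dashed line the median of all tested genes (0.03). The filled points lie among the cathepsins and legumain (4), the other hydrolases (1) and the luminal cofactors (2), and none lies among the membrane proteins or the V-ATPase genes.

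The cathepsins are the main proteases of the lysosome, and legumain, encoded by Lgmn, is the asparaginyl endopeptidase that also cleaves several cathepsin precursors. All 9 genes had a log2 fold change below 0, with a median of -0.51, 4 (44.4%) were called lower and 7 (77.8%) did not overlap between the groups, where 2.82% of all tested genes were called lower and 11.4% did not overlap on the lower side. The summed RPKM of the class was 1235, 1217 and 1139 in null-labelled libraries and 1658, 1605 and 1539 in WT-labelled ones, a ratio of means of 0.748.

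Ctss (chromosome 3, 95526786 to 95556405 of GRCm38), the cathepsin that trims the invariant chain in antigen-presenting cells, had 104, 68.8 and 77.0 RPKM in null-labelled libraries. In WT-labelled ones it had 265, 193 and 184 RPKM. Every library of the former group was under every library of the latter, and the first library of each group was the highest of its group. Group means of 83.1 ± 18.2 and 214 ± 44.0 RPKM (SD, n = 3 each) resulted, and limma put the log2 fold change at -1.36 (SE 0.19) with an adjusted p of 0.00653. Ctss stood seventh in level among the 48 genes in WT-labelled libraries, and at rank 22 in null-labelled ones.

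Ctsl (chromosome 13, 64361890 to 64370772), a broadly expressed endopeptidase, had 27.4, 25.8 and 30.2 RPKM in null-labelled libraries and 49.9, 69.0 and 59.6 RPKM in WT-labelled ones. The null-labelled values lay within a narrow band and the WT-labelled values were spread more widely above it. limma gave a log2 fold change of -1.06 (SE 0.16) and an adjusted p of 0.00748. In GENCODE M21 other genes, Gm47123 and Gm49230, share 26.9% of the exon bases of Ctsl, and the kit does not mark strand, so a part of its reads is uncertain. Together with Psap, Ctss and Ctsl were the genes called under all 14 alternative settings.

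Lgmn (chromosome 12, 102394082 to 102439728) was the lowest of the 48 genes in both groups and had the largest fold. It had 1.15, 1.79 and 1.36 RPKM in null-labelled libraries, from 5, 8 and 6 reads. In WT-labelled ones it had 6.09, 7.40 and 4.51 RPKM, from 24, 27 and 20 reads. The groups did not overlap, and the mean was 4.18-fold lower. In limma the log2 fold change was -1.51 (SE 0.25) with an adjusted p of 0.0145. The call was lost without null-labelled replicate 1 or 3 and without WT-labelled replicate 1 or 2, with adjusted p of 0.0502, 0.0577, 0.0607 and 0.0659 from limma.

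Among the 7 called genes 5 have a promoter window, none of the 5 holds TCACGTGA and 2, Lgmn and Ctsl, hold the shorter CACGTG. Their windows are given with the motif in capitals. They were picked after the values of the genes were known.

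Lgmn, chr12:102439124-102439153, minus strand: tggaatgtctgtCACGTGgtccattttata
Ctsl, chr13:64370739-64370768, minus strand: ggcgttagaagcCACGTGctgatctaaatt

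The motif of Lgmn lies 49 bases before one of its RefSeq starts, in an intron of the longer transcripts. That of Ctsl lies 236 bases before one of its starts, in an untranslated exon of another transcript.

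Ctsb (chromosome 14, 63122462 to 63145923), a cathepsin with both endopeptidase and carboxypeptidase activity, had 120, 118 and 124 RPKM in null-labelled libraries and 188, 180 and 157 RPKM in WT-labelled ones. All 3 null-labelled libraries lay below the lowest WT-labelled one. By limma this was a log2 fold change of -0.53 (SE 0.12), at an adjusted p of 0.0475. The call stood at the threshold: it was kept in 2 of 14 alternatives and lost whichever library was left out, with adjusted p of 0.0557 to 0.154 from limma. Fdft1 shares 12.8% of its exon bases.

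Another 3 cathepsins did not overlap between the groups and were not called. Ctsd, the aspartic protease and the cathepsin with the second highest mean level, had 269, 240 and 251 RPKM in null-labelled libraries and 319, 338 and 320 RPKM in WT-labelled ones (log2 fold change -0.36, adjusted p = 0.13 from limma). Its exons share 34.4% of their bases with Gm49369. Ctsa, the serine carboxypeptidase that protects neuraminidase, and Ctsh, an aminopeptidase, had log2 fold changes of -0.39 and -0.51 (adjusted p = 0.0992 and 0.0752 from limma). Reads are likewise uncertain for Ctsa, with 17.4% of its exon bases shared, Hexa with 12.8%, Atp6v0b with 11.8% and Lamp1 with 9.31%.

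Ctsz and Ctse overlapped between the groups. Ctsz, a carboxypeptidase, was the most abundant of the 9, with 415, 480 and 370 RPKM in null-labelled libraries and 421, 418 and 454 RPKM in WT-labelled ones. The WT-labelled values lay within the range of the null-labelled ones, and the log2 fold change was -0.04 with a 95% interval from -0.32 to 0.25. It ranked second of the 48 genes in WT-labelled libraries and first in null-labelled ones. Ctse, an aspartic protease of the endosome, had means of 15.3 and 17.4 RPKM (adjusted p = 0.695 from limma).

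**Figure D2:**
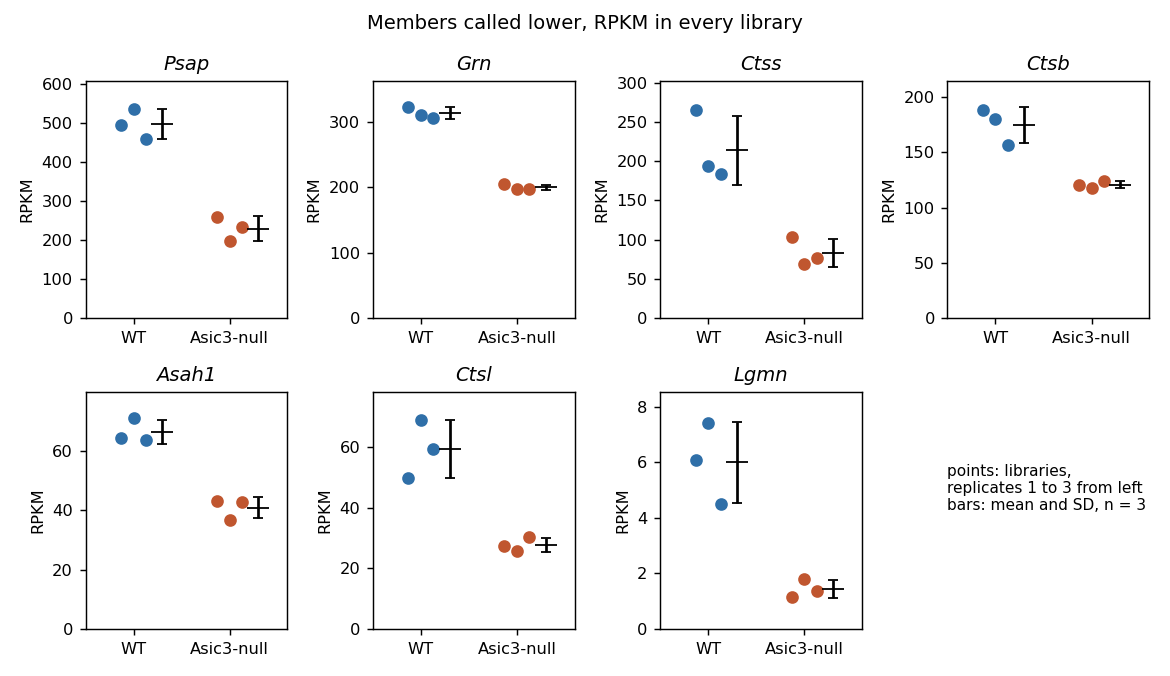
RPKM on the vertical axis, from 0, for the 7 genes called lower, 1 panel a gene and each with its own scale; points are the 3 WT-labelled and the 3 null-labelled libraries, and bars show the mean and SD. In every panel all points of the null-labelled libraries lie below all points of WT-labelled libraries.

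The luminal cofactors had the lowest ratio of summed levels among the classes. Prosaposin, encoded by Psap, is cut into the saposins that present sphingolipids to their hydrolases, progranulin, encoded by Grn, is cut into granulins in the lysosome, and Npc2 carries cholesterol out of the lumen. All 3 genes were lower without overlap, where 11.4% of all tested genes were, and their summed RPKM was 602, 522 and 557 in null-labelled libraries against 965, 1028 and 919 in WT-labelled ones, a ratio of means of 0.577.

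Psap (chromosome 10, 60277628 to 60302600) had 259, 197 and 233 RPKM in null-labelled libraries and 496, 535 and 460 RPKM in WT-labelled ones. Even the highest null-labelled library was far under the lowest WT-labelled one. Group means were 229 ± 31.1 and 497 ± 37.6 RPKM (SD, n = 3 each), with a log2 fold change of -1.12 (SE 0.13) and an adjusted p of 0.00259 from limma. Psap was the most abundant of the 48 genes in WT-labelled libraries and stood at rank 5 in null-labelled ones. Its difference of 268 RPKM made up 24.1% of the net difference of 1110 RPKM over all 48 genes.

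Grn (chromosome 11, 102430507 to 102436809) had 204, 197 and 197 RPKM in null-labelled libraries and 322, 310 and 306 RPKM in WT-labelled ones. Replicates were tight in both groups, and the groups lay well apart. On the log2 scale the change was -0.65 (SE 0.10), and its adjusted p from limma was 0.0113. The call was kept in 11 of 14 alternatives. It was lost without null-labelled replicate 3, without an intensity trend and with the replicate number as a block, with adjusted p of 0.0550, 0.0544 and 0.0594 from limma. Npc2 had means of 131 and 161 RPKM (log2 fold change -0.29, adjusted p = 0.304 from limma).

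The other hydrolases cut glycans, lipids and proteins. Of the 13 genes, 1 (7.69%, beside 2.82% of all tested genes) was called lower, 7 had a log2 fold change below 0 and 6 above, and the median was -0.09. Their summed RPKM was 1031, 1041 and 992 in null-labelled libraries and 1072, 1088 and 970 in WT-labelled ones, so that the groups overlapped and the ratio of means was 0.979.

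The called gene was Asah1 (chromosome 8, 41340646 to 41397644), which encodes acid ceramidase. It had 43.2, 36.7 and 42.8 RPKM in null-labelled libraries and 64.4, 71.0 and 63.8 RPKM in WT-labelled ones. The groups did not overlap and their spreads were alike. limma gave a log2 fold change of -0.69 (SE 0.13) and an adjusted p of 0.0241. The call was lost whichever library was left out, with adjusted p of 0.0585 to 0.0986 from limma, while the log2 fold change stayed between -0.73 and -0.61.

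Neu1, the lysosomal sialidase, had 25.0, 24.0 and 20.5 RPKM in null-labelled libraries and 36.7, 27.7 and 31.7 RPKM in WT-labelled ones, without overlap (log2 fold change -0.45, adjusted p = 0.212 from limma). Gaa, the acid alpha-glucosidase that breaks down glycogen, was the gene of the 48 with the opposite order. It lay between 50.2 and 54.4 RPKM in null-labelled libraries and between 39.6 and 41.9 RPKM in WT-labelled ones (log2 fold change 0.34, adjusted p = 0.213 from limma). Neither gene was called.

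The most abundant hydrolases of this class were Man2b1, an alpha-mannosidase, and Gusb, the beta-glucuronidase. Man2b1 had 427, 400 and 390 RPKM in null-labelled libraries and 419, 357 and 313 RPKM in WT-labelled ones, and the groups overlapped. Gusb had 192, 203 and 179 RPKM against 186, 174 and 199 RPKM, again with overlap. The difference of Man2b1, 42.9 RPKM, was the largest of the 48 genes in the upward direction and its log2 fold change was 0.17 (95% interval -0.13 to 0.47). For Fuca1 and Glb1, a fucosidase and a beta-galactosidase, the log2 fold change was 0.00, with 95% intervals from -0.28 to 0.28 and from -0.46 to 0.47. Hexa, Smpd1, Ppt1, Tpp1 and Lipa lay between -0.43 and -0.09 with overlap, and Gla at 0.37 with overlap.

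**Figure D3:**
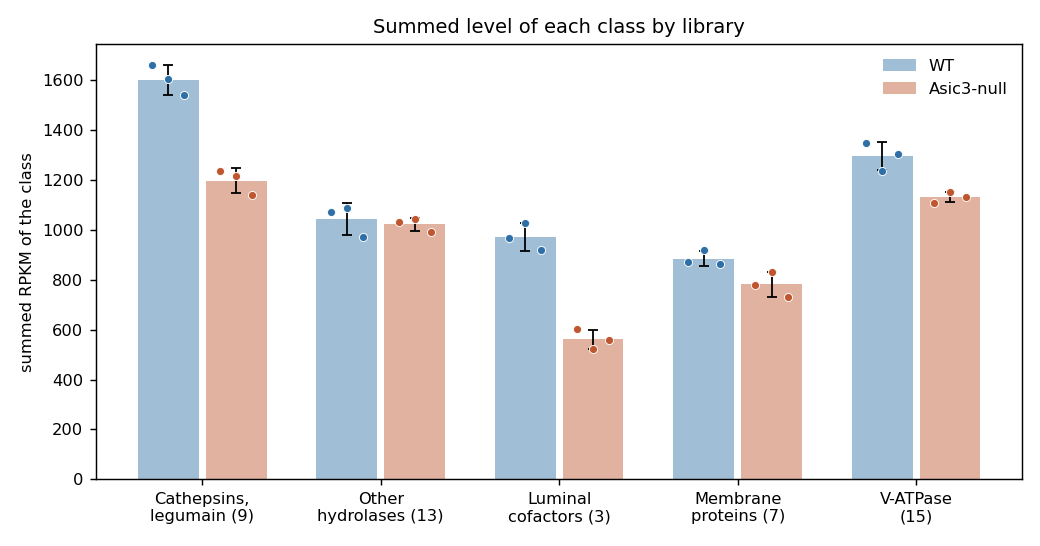
Summed RPKM on the vertical axis, from 0, for 5 classes, with the number of genes in brackets; bars are means of 3 libraries, points the libraries and error bars the SD. The groups lie apart for the cathepsins and legumain, the luminal cofactors, the membrane proteins and the V-ATPase, and overlap for the other hydrolases.

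Among the membrane proteins, 6 of 7 genes had a log2 fold change below 0, with a median of -0.30, and none was called. With 2.82% of all tested genes called lower, 0 of 7 is near the background. Lamp1, a heavily glycosylated protein that lines the lysosomal membrane, had 382, 361 and 341 RPKM in null-labelled libraries and 394, 444 and 407 RPKM in WT-labelled ones. The groups stood just apart (log2 fold change -0.20, adjusted p = 0.411 from limma). Cd68, a LAMP-related protein used as a macrophage marker, had 124, 161 and 117 RPKM against 203, 167 and 186 RPKM (log2 fold change -0.48, adjusted p = 0.159 from limma), and the second library of the null-labelled group came close to the second of the WT-labelled group.

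Scarb2, the receptor that brings glucocerebrosidase to the lysosome, had 28.7, 17.1 and 18.4 RPKM in null-labelled libraries and 23.2, 33.3 and 31.6 RPKM in WT-labelled ones, with overlap. Cd63, a tetraspanin, was the gene of this class above 0, with 157, 206 and 158 RPKM against 135, 175 and 146 RPKM and a log2 fold change of 0.19. It has a pseudogene, Cd63-ps, with which reads may have been shared. Lamp2 had 63.9 ± 2.3 and 65.0 ± 0.45 RPKM (SD, n = 3 each), the smallest change of the class. Npc1, the cholesterol transporter, and Mcoln1, the calcium channel TRPML1, had log2 fold changes of -0.45 and -0.30 with overlap.

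Tfeb itself had 22.5, 21.2 and 18.1 RPKM in null-labelled libraries and 27.1, 22.5 and 29.0 RPKM in WT-labelled ones. The groups were separated by less than 0.1 RPKM at their nearest libraries, and the log2 fold change was -0.33 (adjusted p = 0.353 from limma). The 7 genes whose windows hold TCACGTGA, with the sequences given, were not called, which for 7 genes is near the background of 2.82%, and their log2 fold changes ran from -0.39 for Ctsa to 0.37 for Gla.

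The V-ATPase is built from many subunits, each with its own gene or genes. Of the 15 V-ATPase genes, 12 had a log2 fold change below 0, and the 15 ran from -0.55 to 0.10 with a median of -0.16. None was called, and with 2.82% of all tested genes called lower, 0 of 15 is near the background. Without overlap 4 (26.7%) were lower, beside 11.4% of all tested genes. Their summed RPKM was 1108, 1149 and 1132 in null-labelled libraries and 1348, 1235 and 1303 in WT-labelled ones, which did not overlap, with a ratio of means of 0.872. For the 33 other genes the median log2 fold change was -0.30 and the ratio of the summed means 0.791. Whether the pump and the other genes differed in their change was not tested.

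The V0 sector forms the path of the protons through the membrane. Its 5 genes all had a log2 fold change below 0, with a median of -0.19, and all overlapped between the groups. Atp6v0b, a subunit of the proteolipid ring, had 167, 166 and 193 RPKM in null-labelled libraries and 243, 196 and 167 RPKM in WT-labelled ones. Atp6v0e had 133, 157 and 126 RPKM against 153, 149 and 184 RPKM, and Atp6v0d1, the subunit between the ring and the stalk, had 110, 98.4 and 123 RPKM against 121, 133 and 138 RPKM. In each of these genes at least 1 null-labelled library lay within the range of the WT-labelled ones. Atp6v0c, the main ring subunit, had nearly equal means of 66.8 and 67.2 RPKM, and its pseudogenes Atp6v0c-ps1 and Atp6v0c-ps2 make its reads uncertain. Atp6v0a1 was the lowest of the sector at 17.9 and 18.7 RPKM.

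The V1 sector carries the sites of ATP hydrolysis, and 3 of its 8 genes (37.5%, beside 11.4% of all tested genes) were lower without overlap. Atp6v1b2, the B subunit, came closest to a call, with 76.7, 98.0 and 92.4 RPKM in null-labelled libraries and 128, 132 and 129 RPKM in WT-labelled ones. The WT-labelled values were nearly the same, and the highest null-labelled value lay well below them. The log2 fold change of -0.54 (SE 0.13) had an adjusted p of 0.0593 from limma, and of 0.0370 with limma-voom on the recovered reads. The catalytic A subunit, Atp6v1a, had means of 29.8 and 33.2 RPKM, and its groups overlapped.

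Atp6v1g1, a stalk subunit, had 23.7, 23.0 and 21.4 RPKM in null-labelled libraries and 31.8, 29.1 and 41.7 RPKM in WT-labelled ones (log2 fold change -0.55, adjusted p = 0.132 from limma). Atp6v1d, in the central rotor, had means of 26.5 and 35.1 RPKM (adjusted p = 0.287 from limma). Atp6v1e1, another stalk subunit, had 109, 112 and 110 RPKM in null-labelled libraries and 121, 101 and 119 RPKM in WT-labelled ones, so that the groups overlapped and the null-labelled libraries stood close together. Atp6v1f, Atp6v1c1 and Atp6v1h lay between -0.16 and 0.05 on the log2 scale.

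The mRNA levels of the V0 and V1 genes were far from even. Across these 13 genes the highest mean RPKM was 10.8 times the lowest in WT-labelled libraries and 9.81 times in null-labelled ones. Atp6v0b was at the top and Atp6v0a1 at the bottom in both. Atp6v0a1 encodes the a1 form of a subunit whose a3 form is encoded by Tcirg1. Tcirg1 is not among the 13 and had means of 135 RPKM in null-labelled and 154 RPKM in WT-labelled libraries. The range is therefore one of genes, and levels summed per subunit were not compared. Of the accessory genes, Atp6ap1 had 84.6, 86.3 and 86.6 RPKM in null-labelled libraries and 108, 115 and 95.7 RPKM in WT-labelled ones, without overlap (log2 fold change -0.30, adjusted p = 0.267 from limma). Atp6ap2, the prorenin receptor, had 87.7, 80.5 and 75.0 RPKM against 71.1, 78.5 and 77.6 RPKM, with overlap. Atp6ap1, Atp6ap2, Gla and Lamp2 lie on the X chromosome, where the sex of the cells differed with the label. None of these 4 was called, which for 4 genes is near the background of 2.82%. Their log2 fold changes ran from -0.30 to 0.37 with a median of 0.03. The part of sex in these results was not tested.

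**Figure D4:**
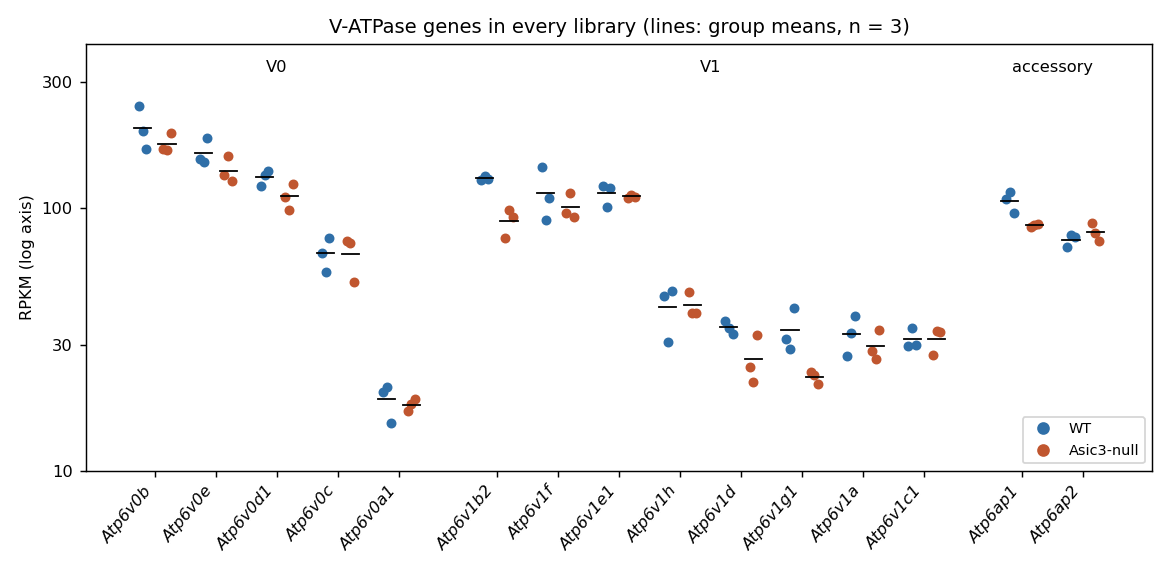
RPKM on a log axis for the 15 V-ATPase genes, ordered by level within the V0 sector, the V1 sector and the accessory genes; points are the 3 WT-labelled and the 3 null-labelled libraries, and lines their means. Points of the 2 groups are separate for Atp6v1b2, Atp6v1d, Atp6v1g1 and Atp6ap1 and mixed for the other 11 genes.

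The order of the genes by level was similar at its ends. Psap, Ctsz, Lamp1, Man2b1, Ctsd and Grn, in this order, were the highest 6 in WT-labelled libraries, and Ctsz, Man2b1, Lamp1, Ctsd, Psap and Grn those in null-labelled libraries. Among the WT-labelled means, neighbours such as Ctsz (431 ± 19.9 RPKM) and Lamp1 (415 ± 26.1 RPKM) lay within their SDs (n = 3 each). The 7 called genes together made up 56.6% of the net difference, led by Psap (24.1%), Ctss (11.8%) and Grn (10.2%).

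Beyond these 48 genes, 84 other genes of the lysosome, of its control and of the V-ATPase were read from the same fit, and 71 of them were tested. Of the 71, 4 (5.63%) were called lower and 0 higher, beside 2.82% and 0.523% of all tested genes. The groups did not overlap for 17 (23.9%) on the lower side and for 3 on the higher, beside 11.4% and 11.2% of all tested genes. The log2 fold change was below 0 for 50 of the 71, and the median was -0.19. By group the called genes were 3 of 27 other hydrolases and activators and 1 of 20 membrane and sorting genes. None of 3 other cathepsins, 3 cystatins, 11 genes of the MiT factors and their control and 7 other V-ATPase genes was called, with medians of -0.38, -0.16, -0.14 and -0.14.

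Gm2a and Slc11a1 were among the called genes outside the 48. Gm2a, the activator protein that works with hexosaminidase, had 46.5, 39.7 and 37.6 RPKM in null-labelled libraries and 63.2, 63.2 and 67.6 RPKM in WT-labelled ones (log2 fold change -0.64, adjusted p = 0.0355 from limma). Slc11a1, a divalent metal transporter of phagosomes, had 1.87, 0.911 and 1.11 RPKM against 9.50, 9.36 and 4.22 RPKM (log2 fold change -1.87, adjusted p = 0.0175 from limma). Neither overlapped between the groups. Gm2a was called in 7 of 14 alternatives and Slc11a1 in 9 of the 13 in which it was tested. With 1 library left out, 0 to 3 of the 84 genes were called lower: 0 without WT-labelled replicate 1 or 2, 1 without WT-labelled replicate 3 or without null-labelled replicate 2 or 3, and 3 without null-labelled replicate 1.

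The azurophil granule is a lysosome-related organelle of myeloid progenitors, and none of its listed genes is among the 48. Of 8 such genes tested, 7 had a log2 fold change below 0, 2 were lower without overlap, beside 11.4% of all tested genes, and 1 (12.5%) was called lower, beside 2.82%. The called gene was Elane, neutrophil elastase, with 631, 865 and 979 RPKM in null-labelled libraries and 1203, 1620 and 1711 RPKM in WT-labelled ones (adjusted p = 0.0435 from limma). The call was lost without any one library other than WT-labelled replicate 1, with adjusted p of 0.0548 to 0.132 from limma. Ctsg, which encodes cathepsin G of the granule, had means of 1394 and 1029 RPKM (log2 fold change 0.43, adjusted p = 0.289 from limma). The summed level of the 8 genes overlapped between the groups.

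The number of called genes among the 48 depended on single libraries. It was 3 without null-labelled replicate 3, 4 without null-labelled replicate 1 or without WT-labelled replicate 1 or 2, and 5 without null-labelled replicate 2 or WT-labelled replicate 3. Psap, Ctss and Ctsl were among the called genes each time, with log2 fold changes from -1.21 to -1.01, from -1.52 to -1.19 and from -1.18 to -0.95.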

How the data were processed

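The authors sorted YFP+Mac-1+c-Kit+ LICs, extracted RNA with Trizol and made libraries with a TruSeq v2 kit that does not mark strand. Per the submitters' processing notes, CASAVA 1.8.2 and TopHat2 2.0.12 were used with GRCm38. The counting tool and gene annotation are not given in the sources used here. The authors deposited 1 table of RPKM values, normalized for gene length and library size. Whole reads were recovered from these values for 16825 genes, all those above 0, within 0.0001 reads, and used for read numbers and for limma-voom alone, which was added after the data were seen.

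The test on genes whose mean RPKM reached 1 used limma 3.58.1 in R 4.3.3 on log2(RPKM + 1), with an intensity trend, the genotype label as the only term and Benjamini-Hochberg adjustment over all 12037 genes. The step was tested on simulated data. Summaries used Python 3.11.15 and pandas 2.3.3. Replicates of a group differed by more than sampling noise (chi-square per degree of freedom 3.79 to 7.66), so none was counted as a duplicate. Alternatives were each library left out in turn, the replicate number as a block, no trend, no filter, a minimum mean of 5 RPKM, a pseudocount of 0.1, and scaling by median ratios or by quantiles.

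The 48 genes, the other lists and the tests were chosen with earlier results of these data known. Values in every library are given for called genes and, in each class, for the 2 genes with the highest mean and the 2 with the lowest p. Of other lists, called genes are named, apart from some that are not reported here. Gaa, Elane, Ctsg and the Lgmn and Ctsl windows were chosen after their values were seen. Symbols and promoter windows came from RefSeq (GRCm38.p6), exon overlaps from GENCODE M21, and the last 40 bases of 39 of the 46 windows of these genes stood in a GENCODE transcript.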

Additional observations from a re-analysis of the deposited data

How the results depend on the processing

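Of the 48 genes, 37 kept 1 direction under all 14 alternatives and 11 changed sign, and no gene was called higher under any. Lower calls, 7 as reported, numbered 4 without an intensity trend and 4 with the replicate number as a block, 5 to 8 under the other full-data settings, and 3 to 5 with 1 library left out. Of the 84 other genes, lower calls numbered 4 as reported, 6 with limma-voom on the recovered reads, 3 or 4 under the other scalings, pseudocount and minimum, 2 without a filter, 1 without a trend, 1 with the replicate block, and 0 to 3 with 1 library left out. With 1 library left out the median log2 fold change of the 48 ranged from -0.32, without WT-labelled replicate 3, to -0.21. The causes were not tested. The replicate numbers mark no shared source in the labels, and deviations of libraries with the same number correlated at 0.059, -0.059 and -0.123. Libraries with number 1 correlated best with each other, and those with 2 and 3 did not.

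Among genes near no change, Glb1, Fuca1 and Atp6v1c1 turned to -0.0088, -0.011 and -0.011 with median-ratio scaling and to -0.0055, -0.0052 and -0.0053 with quantile normalization. With 1 library left out the log2 fold change ran from -0.14 to 0.052 for Ctsz, -0.17 to 0.22 for Glb1, -0.0096 to 0.086 for Gusb, -0.028 to 0.045 for Fuca1, -0.14 to 0.021 for Lipa, -0.19 to 0.032 for Atp6v0a1, -0.13 to 0.15 for Atp6v0c, -0.048 to 0.098 for Atp6v1c1, -0.11 to 0.018 for Atp6v1e1, -0.32 to 0.016 for Atp6v1f and -0.15 to 0.16 for Atp6v1h. Depth limits Lgmn most, at 5 to 27 reads per library, and it was not tested at a minimum mean of 5 RPKM.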

Other observations

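The V-ATPase has isoforms that specialized cells use, and a few were picked from the list of 14 other V-ATPase genes after their values were seen. Atp6v0a4, Atp6v0d2, Atp6v0e2, Atp6v1e2 and Atp6v1g3, known from kidney, osteoclasts, brain, testis or other specialized tissues, were listed at 0 in all 6 libraries. Tcirg1, which encodes the a3 subunit of the V0 sector, was at 180, 101 and 123 RPKM in null-labelled libraries and at 192, 140 and 130 RPKM in WT-labelled ones (adjusted p = 0.687 from limma), well above the a1 subunit gene Atp6v0a1 at 17.9 and 18.7 RPKM and the a2 subunit gene Atp6v0a2, which lay between 11.2 and 16.4 RPKM over the 6 libraries. Rnasek, whose product associates with the pump, was at 133, 146 and 105 RPKM against 199, 157 and 172 RPKM, without overlap and not called (adjusted p = 0.190 from limma).

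The relatives of Tfeb and a cathepsin inhibitor were picked in the same way. Tfe3 had means of 11.5 and 13.3 RPKM, Tfec 34.7 and 40.8 RPKM, and Mitf 0.163 and 0.634 RPKM, the last under the level for testing. Neither Tfe3 nor Tfec was called (adjusted p = 0.605 and 0.483 from limma). Cst3, which encodes the secreted cathepsin inhibitor cystatin C, had means of 629 and 772 RPKM, above those of any of the 48 genes, and was not called (adjusted p = 0.252 from limma).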
